A study of Canis lupus familiaris with 30 samples.

Results

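Transcript levels of cadherins and of factors tied to epithelial-mesenchymal transition (EMT) were measured in 30 primary canine thyroid carcinomas (TC). The set was named by gene symbol as CDH1, CDH2, CDH16, EPCAM, VIM, SNAI1, SNAI2, TWIST1, ZEB1 and ZEB2. Of these 10 genes, 9 were found by symbol among the 30424 genes counted, and TWIST1 was not analysed here. RNA was taken from bulk tumor tissue of the dog thyroid gland, depleted of ribosomal RNA and sequenced as 1 library per tumor. The sample labels gave each tumor a library name only, with no treatment, age, diagnosis or growth pattern, so no groups of tumors were compared. A tumor's level of a gene was taken as log2(n + 1), where n is the read count after scaling by a median-of-ratios size factor. Because each tumor had 1 library, a level in 1 tumor carries no replicate error. Levels were not divided by gene length and were compared only between tumors.

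Classical cadherins are calcium-dependent adhesion receptors that hold neighbouring cells together and bind catenins inside the cell. CDH1 (E-cadherin) and EPCAM are surface adhesion proteins of epithelia, CDH2 (N-cadherin) is the classical cadherin of neural and mesenchymal cells, and CDH16 (Ksp-cadherin) is known from kidney and thyroid epithelium. VIM encodes vimentin, the intermediate filament of mesenchymal cells. The transcription factors SNAI1, SNAI2, TWIST1, ZEB1 and ZEB2 repress epithelial genes, CDH1 among them, during EMT in development, and many of them are also active in fibroblasts, endothelium and leukocytes. In bulk tissue, fewer cells of a type and less RNA per cell cannot be told apart.

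Between 12288945 and 45148677 reads were counted per tumor (median 25569678), and 13515 to 17482 genes had at least 10 counts. Clustering of the tumors on 762 variable genes, with the genes of the set left out, gave a larger branch of 25 tumors and a smaller branch of 5. TG and PAX8, which encode thyroglobulin and a thyroid transcription factor, had median levels of 19.16 and 13.71 in the larger branch. TC1088 was the lowest there for both, with levels of 3.70 for TG and 6.87 for PAX8. TG was also well below its median in TC1979 (13.00), TC1241 (13.11) and TC815 (13.46), whose PAX8 levels were 13.97, 13.90 and 13.29. PAX8 stood at 10.84 in TC538. TC538 had the fewest counts (12288945) and the smallest size factor (0.279). Relations below were therefore computed within the 25 tumors of the larger branch, and some of them are also given without TC538 or without TC1088.

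CDH1 and EPCAM, the epithelial adhesion genes, were read at 9777 and 3604 counts or more in every tumor. The CDH1 level (ENSCAFG00000020305) ranged from 13.61 in TC2289 through a median of 15.53 to 17.44 in TC2011, a 14.2-fold range of normalized counts over the 30 tumors. TC2011 held 205115 CDH1 counts and TC2289 held 9777. The middle of the distribution was narrow, with quartiles at levels of 14.94 and 15.86. EPCAM (ENSCAFG00000002653) ran from 11.82 in TC1241 through 13.95 to 16.44 in TC538, a 24.5-fold range. TC1241 was thus the lowest tumor for EPCAM, and it was also next to lowest for CDH1 at 14.48. TC538 was the highest for EPCAM and next to highest for CDH1 at 17.10. Over the 25 tumors of the larger branch the SD of the CDH1 level was 0.73, which put CDH1 at percentile 34.1 of the 18711 genes tested, whose median SD was 0.88. The SD of EPCAM was 0.96, at percentile 57.3.

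CDH2 and CDH16 were the members with the widest spread. The CDH2 level (ENSCAFG00000018115) had a median of 9.50 and reached 12.32 in TC1123, where 5634 reads were counted. TC627 had a CDH2 count of 0, for which a floor of 3 counts was used, so CDH2 in TC1123 was at least 1367-fold higher than in TC627 at that floor. The other tumors of low CDH2 were TC1088 at a level of 3.58, TC1473 at 4.57, TC2089 at 5.14, TC1744 at 5.16 and TC1994 at 5.91. The next tumor, TC812, stood at 7.82, and the rest lay above it. In the 5 tumors from TC1088 to TC1994 the CDH1 level lay between 14.71 and 15.77, and in TC627 it was 16.47. The SD of CDH2 in the larger branch was 3.06, at percentile 99.5 of all genes tested.

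CDH16 (ENSCAFG00000020397) was counted at 3 reads or fewer in 7 tumors and at fewer than 10 reads in 11. Its median level was 4.19. TC1020, TC1088 and TC2289 had 1 CDH16 count each, with an exact 95% Poisson interval of 0.0253 to 5.57 counts, so their order is not resolved at this depth. At the other end stood TC1123 at a level of 10.60 with 1706 counts, followed by TC1744 at 8.97, TC1241 at 8.93, TC640 at 8.64 and TC1994 at 8.31. TC1123 was also the tumor of highest CDH2, while TC1744 and TC1994 were among the lowest tumors for CDH2. The SD of CDH16 in the larger branch was 2.62, at percentile 98.5.

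**Figure D1:**
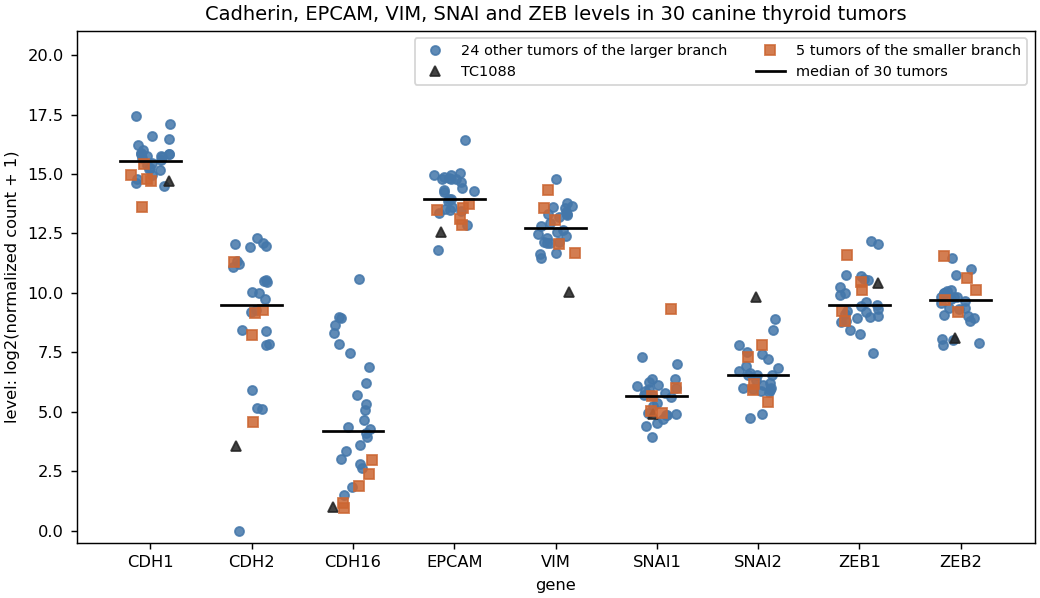
Level of each gene (log2 of the normalized count plus 1, vertical axis) in each of 30 tumors, with 1 point per tumor and a bar at the median of the 30. CDH2 and CDH16 span levels from 0.00 to 12.32 and from 0.98 to 10.60, whereas CDH1 stays between 13.61 and 17.44; levels are not corrected for gene length and are not compared between genes.

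VIM (ENSCAFG00000004529) ran from a level of 10.05 in TC1088 through a median of 12.73 to 14.79 in TC22, a 26.8-fold range. TC22 held 40420 VIM counts and TC1088 held 1063. TC538 was next to lowest at 11.45, and TC1601, of the smaller branch, was next to highest at 14.34. Without TC1088 the range within the larger branch was 10.2-fold. VIM is also a transcript of fibroblasts, endothelium and leukocytes, and the levels of their markers are set beside it below.

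SNAI1 and SNAI2, zinc finger repressors of the Snail family, were read at low counts. SNAI1 (ENSCAFG00000011499) had a median level of 5.68, with a low of 3.94 in TC538 and a high of 9.34 in TC1601. TC538 had 4 SNAI1 counts (exact 95% Poisson interval 1.09 to 10.2) and TC1601 had 754. TC1601 stood apart from the others, since the next tumor, TC1213, was at 7.29. SNAI2 (ENSCAFG00000006638) ran from 4.73 in TC812 through 6.54 to 9.84 in TC1088, a 35.7-fold range. TC1088 held 916 SNAI2 counts and was followed by TC1164 at 8.92 and TC627 at 8.46. The highest tumor for one Snail gene was thus not the highest for the other, as TC1088 had a SNAI1 level of 4.90 and TC1601 a SNAI2 level of 7.81.

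ZEB1 and ZEB2, the paired zinc finger and homeobox repressors, were highest in different tumors. ZEB1 (ENSCAFG00000004023) ran from 7.47 in TC812 through 9.49 to 12.20 in TC640, a 26.7-fold range. TC538 at 12.04 and TC1473 at 11.61 followed TC640. ZEB2 (ENSCAFG00000005497) ran from 7.80 in TC640 through 9.69 to 11.56 in TC1473, a 13.6-fold range. TC640 therefore had the highest ZEB1 level and the lowest ZEB2 level of the 30 tumors. TC812 was low for both, with ZEB2 at 7.88, and TC1473 was high for both.

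Some tumors stood at the end of the order for several genes at once. TC1088, whose TG level was the lowest, had the lowest VIM level and the highest SNAI2 level. It was next to lowest for CDH2 and EPCAM, and 1 of the 3 tumors with 1 CDH16 count. TC538 combined the highest EPCAM level with the lowest SNAI1 level, and it was next to lowest for VIM and SNAI2 but next to highest for ZEB1 and CDH1. As TC538 was also the shallowest library, the part of depth in its profile was not tested. TC1123 combined the highest CDH2 and CDH16 levels with a CDH1 level of 14.63, the third lowest. TC1241 combined the lowest EPCAM level with the highest ZEB2 level of the larger branch (11.46) and a high CDH16 level (8.93). The 3 tumors of lowest CDH1 were TC2289, TC1241 and TC1123. Ranked from 1 (lowest) to 30 (highest), they stood at 23, 18 and 26 for ZEB1 and at 25, 29 and 21 for ZEB2. For SNAI1 they stood at 11, 17 and 20, and for SNAI2 at 12, 20 and 21.

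**Figure D2:**
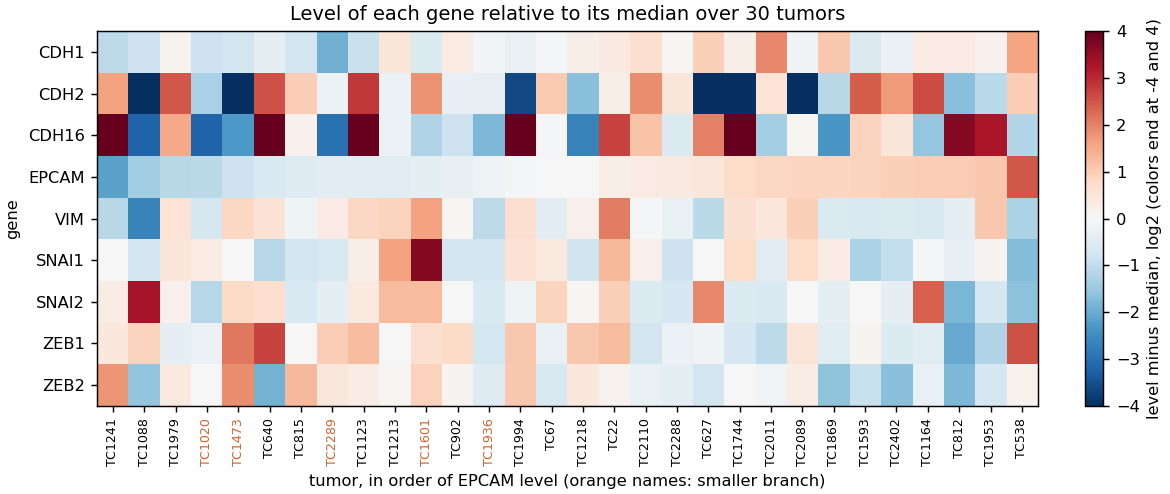
Level of each gene minus its median over the 30 tumors (color, log2 units, with the extremes cut off at the ends of the scale), with tumors in columns ordered by EPCAM from TC1241 (level 11.82) to TC538 (16.44). TC1241 at the left is low for EPCAM, CDH1 (14.48) and VIM (11.63), and TC538 at the right is high for EPCAM, CDH1 (17.10) and ZEB1 (12.04).

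Whether the genes of the set varied together was asked with Spearman's rho over the 25 tumors of the larger branch. Each p came from a two-sided permutation test with 100000 permutations. It was adjusted by the Benjamini-Hochberg method over all 18710 genes tested against that member, and the larger p of both directions was used for a pair. None of the 36 pairs passed an adjusted p of 0.05 (lowest 0.0849). By unadjusted p, 6 pairs were below 0.05 by rho and 4 by Pearson's r. Over all 18710 genes tested, from 830 (for CDH16) to 4759 (for SNAI1) were below 0.05 by the unadjusted p of rho. Each p gives how often shuffling the tumors gave a correlation at least as large in size, and it covers these tumors only.

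CDH1 and EPCAM, the epithelial pair, had a positive rho that did not pass the adjusted test. It was 0.52 (permutation p = 0.00827, adjusted p = 0.424) and Pearson's r 0.63 (permutation p = 0.00073), and r was 0.54 (permutation p = 0.00842) without TC2011 and TC538, the tumors farthest from the CDH1 median. Leaving out 1 tumor at a time kept rho between 0.46 and 0.60. CDH1 and CDH2, the cadherins that change places in EMT, had a rho of -0.23 (permutation p = 0.266) and r of -0.13 (permutation p = 0.533), so no relation was detected between them in these tumors. Without TC1088 the rho of CDH1 with CDH2 was -0.34, which also stayed short of the adjusted test. CDH1 with the repressors gave rho values of 0.16 for SNAI1, -0.21 for SNAI2, -0.35 for ZEB1 and -0.17 for ZEB2. Of these, ZEB1 had the smallest permutation p (0.0854, adjusted p = 0.612). Without TC538 the rho of CDH1 with ZEB1 was -0.49, and this pair too stayed short of the adjusted test. CDH1 with VIM gave a rho of 0.02 (permutation p = 0.91).

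EPCAM had 3 of its 4 repressor relations below an unadjusted p of 0.05, all negative and none past the adjusted test. Of all 18710 genes tested against EPCAM, 816 positive and 952 negative ones were below that unadjusted p. With SNAI2 rho was -0.52 (permutation p = 0.00944, adjusted p = 0.451), and r was -0.46 (permutation p = 0.0213), or -0.43 (permutation p = 0.0395) without TC1241 and TC538. With ZEB1 rho was -0.46 (permutation p = 0.0227, adjusted p = 0.41) while r was -0.18 (permutation p = 0.397). TC538 was the tumor high for both genes. Without TC1241 and TC538 r with ZEB1 was -0.58 (permutation p = 0.00344), and without TC538 alone rho was -0.63. With ZEB2 rho was -0.41 (permutation p = 0.0435, adjusted p = 0.592) and r was -0.32 (permutation p = 0.114). Without TC1241 and TC538 that r was -0.23 (permutation p = 0.288). The rho with ZEB2 stayed between -0.55 and -0.33 when each tumor was left out in turn. With SNAI1 rho was -0.18 (permutation p = 0.404). That EPCAM was related to these genes and CDH1 was not is not shown, because the difference between the correlations was not tested.

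VIM and SNAI1 had the largest rho of the 36 pairs over these 25 tumors, at 0.59 (permutation p = 0.00232, adjusted p = 0.0849) and r of 0.57 (permutation p = 0.00289), an r below the 0.63 of CDH1 with EPCAM. Without TC1088 and TC22 r was 0.49 (permutation p = 0.0168), and rho stayed between 0.53 and 0.65 when each tumor was left out in turn. VIM with the other repressors gave rho values of -0.07 for SNAI2, 0.07 for ZEB1 and 0.32 for ZEB2. VIM with EPCAM gave -0.12, or -0.26 without TC1088. Among the repressors, SNAI2 and ZEB1 had a rho of 0.40 (permutation p = 0.0468, adjusted p = 0.613) with r at 0.20 (permutation p = 0.334). Without TC538 the rho of SNAI2 with ZEB1 was 0.55. ZEB1 and ZEB2 had a rho of 0.37 (permutation p = 0.0702, adjusted p = 0.672), which was 0.55 without TC640, the tumor highest for ZEB1 and lowest for ZEB2. SNAI1 and SNAI2 gave 0.23 (permutation p = 0.27). CDH16 gave its largest rho in size with VIM, at 0.38 (permutation p = 0.0613, adjusted p = 0.916), and was at -0.34 with CDH1 (permutation p = 0.0948). Without TC1088 these were 0.30 with VIM and -0.48 with CDH1.

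**Figure D3:**
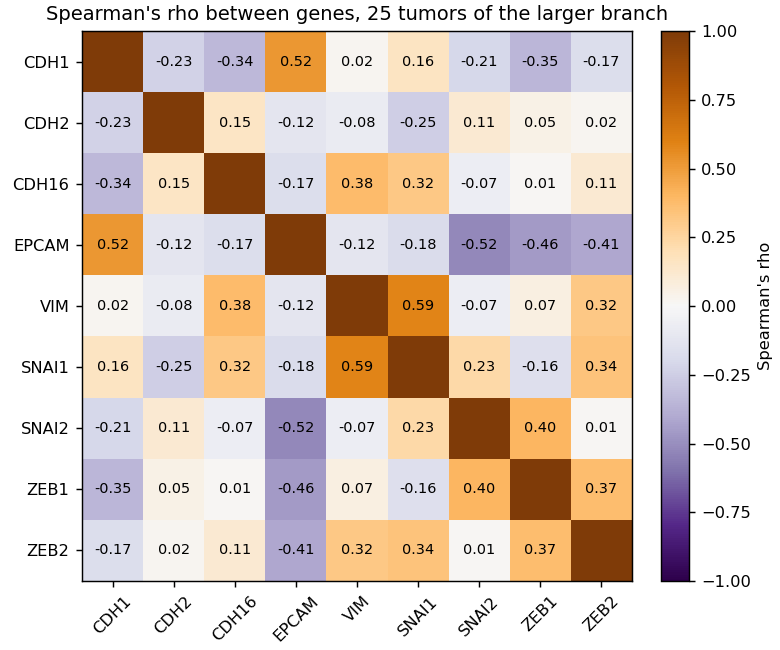
Spearman's rho between the levels of each pair of genes over the 25 tumors of the larger branch (color and number). The largest values are 0.59 for VIM with SNAI1 and 0.52 for CDH1 with EPCAM, the EPCAM row holds -0.52, -0.46 and -0.41 with SNAI2, ZEB1 and ZEB2, and no pair passed the adjusted test.

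**Figure D4:**
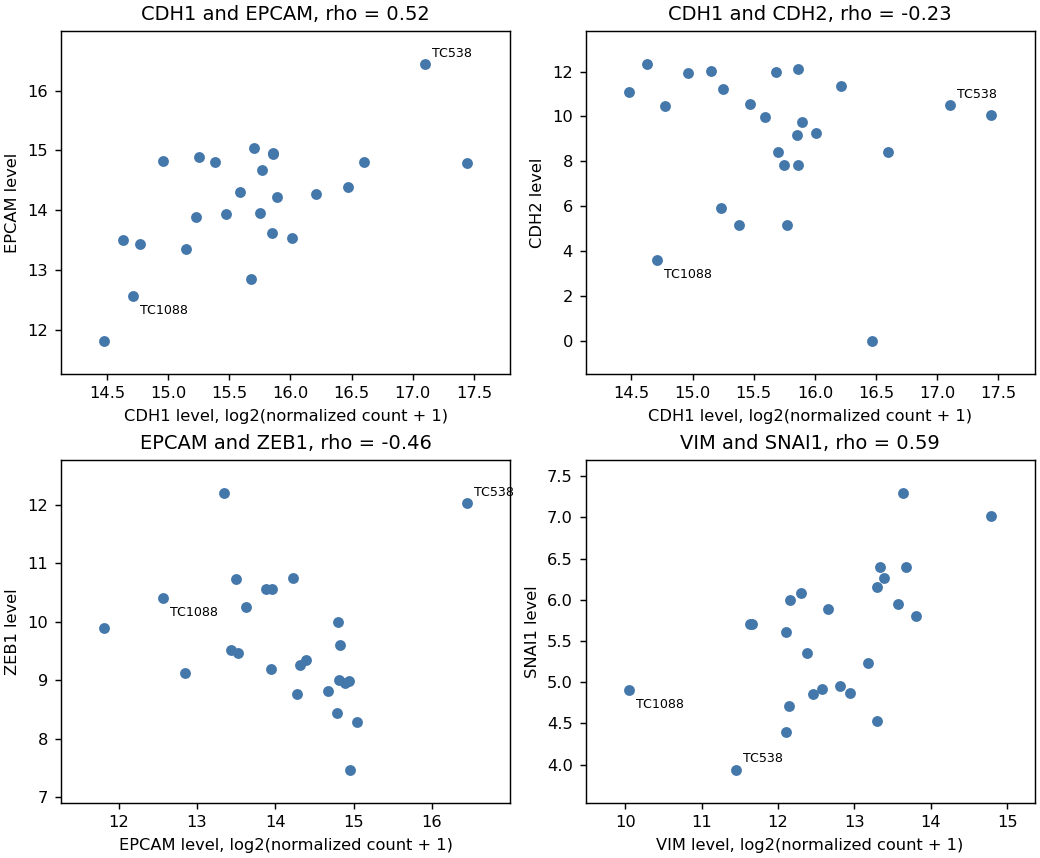
Levels (log2 of the normalized count plus 1) of 4 pairs of genes, 1 point for each of 25 tumors, with TC538 and TC1088 named. Spearman's rho is 0.52 for CDH1 and EPCAM, -0.23 for CDH1 and CDH2, -0.46 for EPCAM and ZEB1, where TC538 is high for both, and 0.59 for VIM and SNAI1, where TC538 is low for both.

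Set against all genes, the members differed in how many genes passed the same test. For CDH1, CDH2, CDH16 and EPCAM no gene passed in the permutation test of rho (0% of 18710 in each direction). At an unadjusted p below 0.05 there were 889 positive and 766 negative genes for CDH1, 700 and 488 for CDH2, 434 and 396 for CDH16 and 816 and 952 for EPCAM. Pearson's r with the same adjustment also called no gene for CDH1, CDH2 and CDH16, and called 15 positive and 27 negative genes for EPCAM. When p values were instead adjusted over all relations of the 9 members at once, 5 positive and 2 negative genes passed for CDH1, 5 and 0 for CDH2, 2 and 0 for CDH16 and 3 and 6 for EPCAM. Without TC1088, 3 and 1 genes passed for EPCAM. At 25 tumors an absolute rho of about 0.40 corresponded to an unadjusted p of 0.05.

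The genes most like CDH1 were CUTA, CTHRC1 (a secreted matrix protein) and TBC1D22A, each at a rho of 0.73, with adjusted p values of 0.153, 0.153 and 0.164. ZNF827 (rho -0.76) and SP110, a nuclear body protein (rho -0.74), lay at the other end with an adjusted p of 0.153 each. SP110 was also the lowest gene for EPCAM (rho -0.78, adjusted p = 0.117), followed by XYLT1, which starts glycosaminoglycan chains (rho -0.77). At the upper end for EPCAM were ASB11 (rho 0.75), PLGRKT (rho 0.75) and CNOT11 (rho 0.74), each with an adjusted p of 0.117. None of these genes passed the test. Among the epithelial partner genes, GRHL2, a transcription factor that activates epithelial genes, had the highest rho with EPCAM (0.70), and KRT18, a keratin, the lowest (-0.21). The median over the 14 epithelial partner genes tested was 0.23 for EPCAM and 0.19 for CDH1, beside a median of about 0 over all genes. With CDH1 the highest epithelial partner was OVOL2 (0.43) and the lowest PKP2, a desmosomal plakophilin (-0.31). The 11 follicular cell markers had a median rho of 0.41 with CDH1, from TSHR at 0.28 to DIO1 at 0.61, and 0 of 11 passed. The 11 C-cell markers had a median of 0.35 with CDH1, from SYT1 at -0.44 to CALCB at 0.66, and 0 of 11 passed as well. These markers were low in the larger branch, with a median of 3.89 for their mean level. CALCB had a median level of 0.00 there, so its rho rests largely on tied and very low counts.

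CDH2 was most like TENM4 (a teneurin), DPY19L1 and NELL2 (a secreted neural protein), at rho values of 0.74, 0.74 and 0.72 with adjusted p values of 0.262, 0.262 and 0.265. The lowest rho for CDH2 was with ESRP2, a splicing regulator of epithelial cells (-0.72), followed by ESD, an esterase (-0.71), each with an adjusted p of 0.265. ESRP2 was also the lowest of the epithelial partner list for CDH2, whose median was -0.25 with GRHL1 highest at 0.36. Among the other cadherins, CDH3 (P-cadherin) was lowest at -0.68 and CDH6 highest at 0.52, and 0 of 13 passed. In the mesenchymal partner list, whose median was -0.12, FOXC2 was lowest at -0.42. CDH16 was most like EDA (the ligand ectodysplasin), the protease MMP19 and HRCT1, at rho values of 0.72, 0.69 and 0.68 with adjusted p values of 0.655, 0.873 and 0.873. NRCAM, a neuronal adhesion protein, was lowest for CDH16 at -0.64, followed by XRCC6 at -0.60, each with an adjusted p of 0.916. Among the follicular markers, whose median rho with CDH16 was 0.05, SLC26A4 was lowest at -0.35.

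VIM had 181 genes with a positive and 44 with a negative relation past the adjusted p of 0.05, which were 0.967% and 0.235% of the genes tested. The highest rho values were with GJA5, a gap junction protein known from arterial endothelium (0.84), ASAP1 (0.83) and TRPV2, a cation channel (0.81), each with an adjusted p of 0.0187. RPS27A, which encodes a ubiquitin and ribosomal protein fusion, was lowest (rho -0.78, adjusted p = 0.0187), followed by MTARC2 (rho -0.74, adjusted p = 0.0258). Pearson's r for these 5 genes was 0.73, 0.80, 0.81, -0.80 and -0.68 (permutation p from 1e-05, the smallest these permutations can give, to 0.00012), and 0.72, 0.77, 0.74, -0.74 and -0.65 without TC1088 and TC22, the tumors farthest from the VIM median. The rho values of these genes were steady, as GJA5 stood at 0.82 and RPS27A at -0.75 both without TC538 and without TC1088. The counts of genes past the threshold were not. Without TC538, 7 positive and 1 negative genes passed, and without TC1088, 75 and 12. Leaving out each tumor in turn moved the positive count by over 1.5 times for 13 of the 25 tumors.

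SNAI1 had 280 genes with a positive and 121 with a negative relation past the threshold (1.5% and 0.647%). ELF4, an ETS family factor (0.80), LAMC3, a laminin chain (0.79), and PALD1 (0.79) had the highest rho values, each with an adjusted p of 0.0187. NSUN6, an RNA methyltransferase, was lowest (rho -0.77, adjusted p = 0.0187), followed by the importin IPO5 (rho -0.75, adjusted p = 0.0231). In the order given, r was 0.78, 0.76, 0.80, -0.75 and -0.70 (permutation p up to 0.00018), and 0.74, 0.68, 0.73, -0.64 and -0.60 without TC538 and TC1213. Without TC538, in which SNAI1 was read 4 times, no gene passed in the permutation test of rho, although the rho of ELF4 stayed at 0.78 and that of NSUN6 at -0.74. Without TC1088, 245 positive and 53 negative genes passed.

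SNAI2 had 1 positive and 8 negative genes past the threshold (0.00534% and 0.0428%). With CPM, no count filter, centred ranks or Pearson's r at a pseudocount of 8 none passed for SNAI2, and with TMM 0 and 4 passed. KPNA6, an importin alpha, and CDC42, a small GTPase of the cytoskeleton, were the lowest, each at a rho of -0.85 with an adjusted p of 0.0416. For KPNA6 r was -0.76 (permutation p = 4e-05) and for CDC42 -0.70 (permutation p = 0.00018), moving to -0.81 and -0.79 without TC1088 and TC1164. Without TC538 the rho of KPNA6 was -0.90 and that of CDC42 -0.83. The highest named genes, SEPTIN11 (0.73), CORO1C (0.73) and PXYLP1 (0.70), did not pass, with adjusted p values of 0.0935, 0.107 and 0.114. In the mesenchymal partner list TCF4, a basic helix-loop-helix factor, had the highest rho with SNAI2 (0.68) and FN1, fibronectin, the lowest (-0.51), and 0 of 12 passed. TCF4 was also the mesenchymal partner with the lowest rho for EPCAM (-0.58).

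ZEB1 had 443 positive and 407 negative genes past the threshold (2.37% and 2.18%), more than any other member over these 25 tumors. That order turned with centred ranks over 30 tumors, where SNAI1 had 971 and 1144 and ZEB1 877 and 792. It turned as well without TC1123, TC1218, TC1994, TC2011, TC812 or TC2089, and without the last 3 of these SNAI1 had 659 and 724, 593 and 504, and 539 and 529 genes. ST8SIA4, a polysialyltransferase, was highest (rho 0.85), followed by NT5C3A (0.81) and GLT8D1 (0.81). NCK2, an adaptor of receptor kinases (-0.83), and EPHB3, an ephrin receptor of epithelia (-0.81), were lowest, and all 5 genes had an adjusted p of 0.00985. For NT5C3A, whose level was 0.00 in at least 1 tumor, r was 0.50 (permutation p = 0.0143), or 0.42 (permutation p = 0.0412) without TC640 and TC538. For ST8SIA4, GLT8D1, NCK2 and EPHB3 r was 0.74, 0.70, -0.85 and -0.71 (permutation p up to 9e-05), and 0.84, 0.73, -0.75 and -0.72 without those tumors. Without TC538, 101 positive and 110 negative genes passed, while ST8SIA4 kept a rho of 0.85 and NCK2 of -0.81. The ZEB1 counts were 81 and 84 without TC2011, 113 and 93 without TC812, 312 and 302 without TC2089, and 1049 and 977 without TC22.

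ZEB2 had 30 positive genes past the threshold (0.16%) and no negative one in the permutation test of rho (0%, with 458 at an unadjusted p below 0.05 and 0 by Pearson's r). ETS1, a transcription factor of endothelium and lymphocytes, was highest (rho 0.84), followed by the anion channel subunit LRRC8C (0.81) and the lipid phosphatase INPP4B (0.80), each with an adjusted p of 0.0144. For these 3 genes r was 0.78, 0.77 and 0.72 (permutation p up to 8e-05), and 0.78, 0.75 and 0.73 without TC1241 and TC640. BCL7A (-0.71) and MAP3K21 (-0.69) were lowest, each with an adjusted p of 0.0741. Without TC538, 60 positive genes passed for ZEB2, and ETS1 had a rho of 0.87. With CPM the ZEB2 counts were 297 positive and 3 negative.

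The lists of stromal markers were read against VIM and the SNAI and ZEB genes to show which other cells moved with them. Of the 9 pericyte and smooth muscle markers, 4 passed with VIM (PDGFRB, NOTCH3, ACTA2 and TAGLN) and 5 with SNAI1 (the same 4 and CSPG4), all positive, where 0.967% and 1.5% of all genes passed. Their median rho was 0.61 with VIM and 0.66 with SNAI1, beside 0.01 and 0.03 over all genes. TAGLN, a smooth muscle actin-binding protein, was highest for VIM at 0.77 and DES, desmin, lowest at 0.17. PDGFRB, the platelet-derived growth factor receptor of pericytes, was highest for SNAI1 at 0.75.

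Of the 9 endothelial markers, PECAM1, CDH5, VWF and TIE1 passed with VIM, and CDH5, VWF and TIE1 with SNAI1. The median rho was 0.63 and 0.57. CDH5, the cadherin of endothelial junctions, was the only gene of the 13 other cadherins tested that passed, at 0.73 with VIM and 0.75 with SNAI1. EMCN, endomucin, was lowest for VIM at 0.07, and was the endothelial marker that passed with ZEB1, at 0.70. The endothelial median with ZEB1 was 0.18, with VWF lowest at -0.16, and 2.37% of all genes passed with ZEB1 with a positive sign. Of the 11 fibroblast markers, COL1A1, COL6A3 and THY1 passed with VIM and COL1A2, COL6A3 and THY1 with SNAI1, at median rho values of 0.53 and 0.51. THY1 was highest for VIM at 0.78 and POSTN lowest at 0.08. Of the 7 leukocyte markers tested, CSF1R, the macrophage colony factor receptor, passed with VIM at 0.65. The leukocyte median was 0.22 with VIM, with PTPRC lowest at -0.12. With SNAI1 no leukocyte marker passed, and the median was -0.01, from PTPRC at -0.34 to CSF1R at 0.61.

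These counts depended on single tumors more than the rho values did. Without TC538, none of the pericyte, endothelial, fibroblast or leukocyte markers passed with VIM or SNAI1 in the permutation test, and 1 endothelial marker passed with ZEB1. Over all 25 tumors left out in turn, the median rho of the pericyte list stayed between 0.56 and 0.68 with VIM and between 0.62 and 0.71 with SNAI1, that of the endothelial list between 0.59 and 0.72 with VIM, and that of the fibroblast list between 0.48 and 0.62 with VIM. Without TC1088, 1 fibroblast, 1 pericyte and 3 endothelial markers passed with VIM. ZEB2 had a median rho of 0.55 with the endothelial list, from ESAM at 0.39 to KDR at 0.66, with 0 of 9 past the threshold. With 1 tumor left out, 0 to 3 of these markers passed with ZEB2, among them 1 without TC538 and 3 without TC815. The part of stromal content in the VIM, SNAI1 and ZEB2 levels was not tested.

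Of the 12 mesenchymal partner genes tested, SPARC and ITGA5 passed with VIM and PRRX1, TWIST2, FOXC2 and ITGA5 with SNAI1, where 0.967% and 1.5% of all genes passed with a positive sign. ITGA5, the fibronectin receptor subunit, was highest for both, at 0.73 and 0.76. The median over the list was 0.46 for VIM and 0.49 for SNAI1, and was -0.12 for ZEB1 and -0.03 for SNAI2. Without TC538 none of them passed with VIM or SNAI1. Of the 14 epithelial partner genes, ELF3, an epithelial ETS factor, passed with ZEB1, with a rho of -0.63 (adjusted p = 0.0376), where 2.18% of all genes passed with a negative sign. The list's median rho with ZEB1 was -0.37, beside -0.01 over all genes, and lay between -0.44 and -0.31 over the tumors left out in turn, over which 0 to 4 of the genes passed. ESRP1, a splicing regulator of epithelia, was highest in that list for ZEB1 at 0.07.

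Among the 12 catenins and junction partners, CTNNA3, the alpha-catenin known from heart and testis, passed with ZEB1 (rho 0.62, adjusted p = 0.0392), and JUP, plakoglobin, was lowest at -0.54. The median of these 12 genes with ZEB1 was -0.06, and 2.37% of all genes passed with ZEB1 with a positive sign. Among the 13 genes of the TGF-beta list, SMAD4, the shared partner of the receptor-activated SMADs, passed with VIM with a negative sign (rho -0.68, adjusted p = 0.0347). Of all genes, 0.235% passed with VIM with a negative sign. Neither CTNNA3 with ZEB1, nor SMAD4 with VIM, nor ELF3 with ZEB1 passed without TC538. TGF-beta signalling is a known inducer of EMT, and the list's median rho was 0.06 with VIM, 0.02 with SNAI1 and 0.02 with ZEB1. For CDH1 the highest gene of that list was BMP7 (0.58) and the lowest TGFBR1 (-0.50), neither past the threshold.

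**Figure D5:**
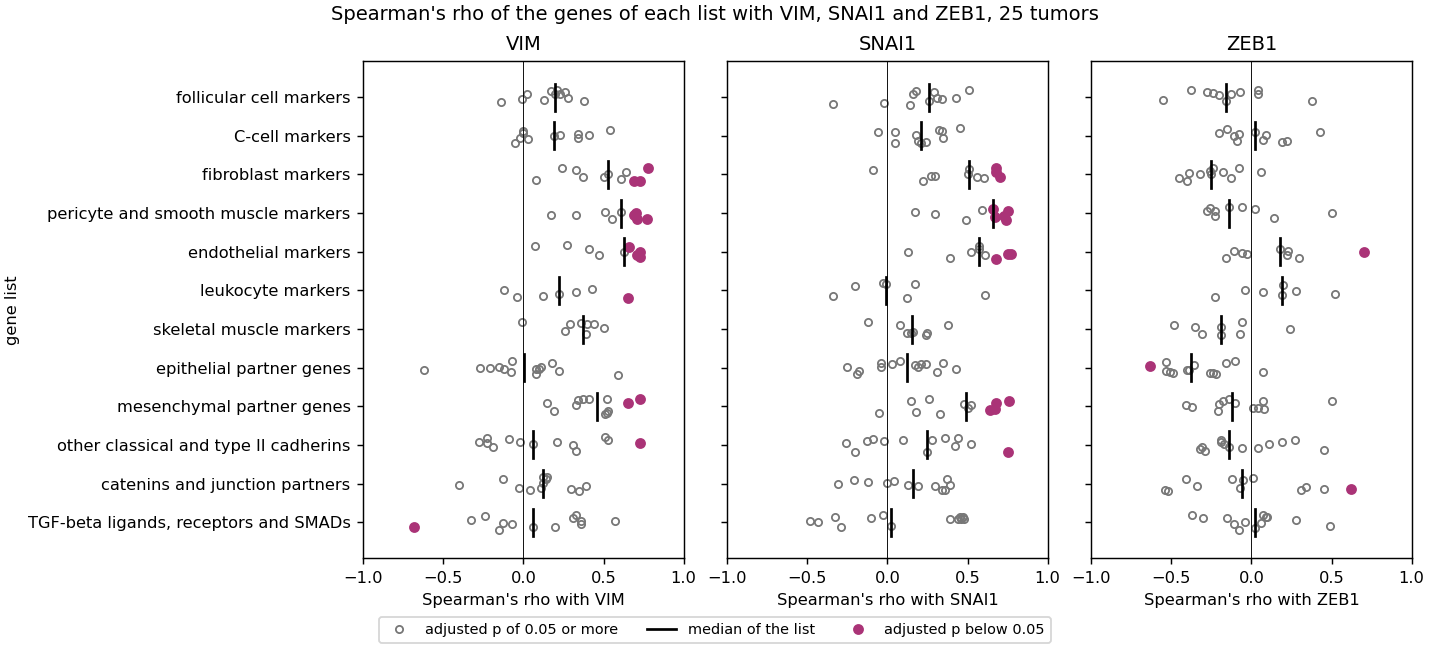
Spearman's rho of each gene of 12 lists (rows) with VIM, SNAI1 and ZEB1 (panels) over 25 tumors, with filled points for an adjusted p below 0.05 and a bar at the list's median. The fibroblast, pericyte and endothelial medians lie between 0.51 and 0.66 for VIM and SNAI1, the epithelial partner median lies at -0.37 for ZEB1, and none of the filled fibroblast, pericyte or endothelial points of VIM and SNAI1 stayed past the threshold without TC538.

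Of 36 relations between the 9 genes and 4 measures of the libraries, none passed the adjusted permutation test of rho. Among all genes tested against the total counts, 0.732% passed with a positive and 0.941% with a negative sign, against the share of the 10 most counted genes 0.0374% and 0.00534%, and against the size factor and the number of genes detected 0% in each direction. The smallest unadjusted p of rho was for VIM with the number of genes of at least 10 counts (rho 0.44, permutation p = 0.0274). CDH1 had a rho of 0.42 with the share of counts in the 10 most counted genes (permutation p = 0.0398), EPCAM a rho of -0.41 with the number of genes detected (permutation p = 0.0436), and VIM a rho of 0.41 with the size factor (permutation p = 0.0446). Pearson's r gave a smaller unadjusted p for CDH1 with that share (r 0.51, permutation p = 0.00968). Without TC1869 and TC538 this r was 0.28 (permutation p = 0.195). EPCAM with the number of genes detected had an r of -0.50 (permutation p = 0.014). It was -0.33 (permutation p = 0.117) without TC538 and TC1593.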

How the data were processed

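RNA-seq of 30 dog thyroid carcinomas was used. The authors used STAR for alignment (CanFam3.1) and deposited 1 table of whole-number read counts for Ensembl genes by tumor. The deposited counts were not normalized. The strand setting of the counting is not given in the sources used here, so overlapping antisense transcripts cannot be told apart. Of 30424 genes, 15780 carried a symbol. Counts were divided by median-of-ratios size factors over 15611 genes, and a pseudocount of 1 was added before log2. Total counts per tumor and exact Poisson intervals cover counting error only.

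The sample labels name no group, so no group comparison was made. Tumors were clustered by Ward linkage on genes whose level had a mean over 2 and a variance over 6. Correlations used 25 tumors and the 18711 genes that reached 10 counts in 5 or more tumors. The members and the 12 lists (138 of 144 genes present) were chosen with earlier results of these data known. Named neighbours were the 3 highest and 2 lowest genes by rho per member, among genes with a symbol whose normalized counts had a median of 100 or more. From lists, the highest and lowest gene and up to 5 called genes were named. Results of some list genes are not reported here. On simulated data, 200 of 200 planted relations were recovered with 14 false calls over 18711 genes. The planted relations were all strong and lay in well-counted genes. Recovery of weaker relations, or of genes with low counts, was not tested. Python 3.11.15, numpy 2.4.6, scipy 1.17.1, pandas 2.3.3 and matplotlib 3.10.9 were used, with edgeR 4.0.16 in R 4.3.3 for TMM factors. The alternatives were TMM-scaled library sizes, CPM, other count filters, Pearson's r, a pseudocount of 8, centred ranks over 30 tumors, adjustment over all relations, and leaving out tumors. The leave-one-out counts were added after seeing the data.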

Additional observations from a re-analysis of the deposited data

How the results depend on the processing

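No paired analysis was possible because the labels give no groups and no replicate numbers. None of the 36 pairs was called under any of the 10 alternatives. The 900 leave-one-out values of the pairs were held against limits of permutation p set with no tumor left out. CDH1, CDH2, CDH16 and EPCAM had no gene past the threshold, so their pairs had no limit to meet and could not be called. The limit was also as low as 2e-05 for SNAI2 and 8e-05 for ZEB2. That no leave-one-out value was called therefore does not show that the calls are stable. Relations with all genes came to 935 positive and 580 negative (61.7% positive). CPM gave 1346 and 221 (85.9% positive), no count filter 537 and 301, centred ranks over 30 tumors 2119 and 1972, Pearson's r 2195 and 1622, or 1961 and 1409 with a pseudocount of 8, and adjustment over all relations at once 166 and 72. Without TC538 they came to 170 and 117, and without TC1088 to 648 and 361. TMM-scaled library sizes (1042 and 624) and the stricter filter (1002 and 706) stayed within 1.5 times in these totals only. By member, TMM moved the positive and negative counts to 103 and 18 for SNAI1, 117 and 3 for VIM, 776 and 599 for ZEB1, 46 and 0 for ZEB2 and 0 and 4 for SNAI2. CPM gave 257 and 26, 450 and 4, 342 and 188, 297 and 3, and 0 and 0 in the same order. With 1 tumor left out, positive and negative counts ranged from 7 (without TC538) to 298 and from 1 to 137 for VIM, from 0 (without TC538) to 659 and from 0 to 724 for SNAI1, from 81 (without TC2011) to 1049 and from 84 to 977 for ZEB1, and from 12 (without TC1869) to 83 and from 0 to 2 for ZEB2. The cause was not tested. The number of genes past the threshold should therefore be read as loose. The rho of the 3 highest and 2 lowest genes named per member moved by at most 0.08 without TC538 or without TC1088. Pairs of members could move more, as EPCAM with ZEB1 went from -0.46 to -0.63 without TC538. Counts under 10 limit CDH16 in 11 tumors, SNAI1 and SNAI2 in TC538, and CDH2 in TC627. Counting error also bears on CDH2 in TC1088 (11 counts) and on SNAI1 in further tumors. In TC640, for example, SNAI1 had 23 counts (exact 95% Poisson interval 14.6 to 34.5).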

Other observations

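The 5 tumors of the smaller branch were TC1020, TC1473, TC1601, TC1936 and TC2289, and are given as values only. Their labels give no group, and no test was made. CALCA, which encodes calcitonin, had a median level of 17.78 in them, from 6.94 in TC2289 to 19.24 in TC1936, and CALCB had a median of 11.02. TG had a median of 11.01 there, from 6.18 to 17.70.

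CDH16 was read 1 time in TC1020, 3 times in TC1473, 8 times in TC1601, 4 times in TC1936 and 1 time in TC2289. CDH16 levels in these tumors ran from 0.98 to 2.98, and 4 tumors of the larger branch also had 3 counts or fewer. The CDH1 level was 14.71 in TC1020, 14.79 in TC1473, 14.94 in TC1601, 15.41 in TC1936 and 13.61 in TC2289. EPCAM levels were 12.86, 13.11, 13.59, 13.74 and 13.49 in the same order. In the other 25 tumors the lowest level was 14.48 for CDH1 and 11.82 for EPCAM.

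CDH2 levels were 8.22 in TC1020, 4.57 in TC1473, 11.29 in TC1601, 9.17 in TC1936 and 9.28 in TC2289. VIM levels in that order were 12.05, 13.56, 14.34, 11.68 and 13.06. SNAI1 stood at 9.34 in TC1601 and between 4.94 and 6.02 in the other 4, while SNAI2 ran from 5.41 in TC1020 to 7.81 in TC1601. ZEB1 ran from 8.80 in TC1936 to 11.61 in TC1473, and ZEB2 from 9.18 to 11.56 in the same tumors. The fibroblast markers had a mean level of 12.58 in TC1601, the tumor of highest SNAI1, and of 8.45 in TC1936, the ends of their range in this branch.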
